A study of Mus musculus with 2 samples.

Results

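The barcodes described here carried few transcripts and a high share of ribosomal protein messages. They were chosen by 2 measured values: 500 to 1000 unique molecular identifiers (UMIs, each counting 1 captured RNA molecule) and 3% or more of those UMIs from genes whose symbols start with Rpl or Rps followed by a digit. The rule found 218 of 1838 barcodes (11.9%, exact 95% interval 10.4 to 13.4), and they held 145332 of the 7381447 UMIs in the matrix. They are called the ribosome-rich low-count barcodes below. They were set against 1425 barcodes above 1000 UMIs and under 3% ribosomal, called the reference, and against 117 barcodes of the same depth, 500 to 1000 UMIs, but under 3% ribosomal.

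The study profiled nuclei of tumour-associated macrophages from mammary tumours of mice carrying the PyMT oncogene, backcrossed to B6 and fed a low protein diet. The 2 groups were control-PyMT mice and MYC-PyMT mice, the latter with S100a8-cre and Rosa26-LSL-MYC, in which Cre driven by the S100a8 promoter switches on MYC. Mice of both groups had their own marrow replaced, after irradiation at the age of 7 weeks, with marrow of Fcgr1-cre Rosa26LSL-H2B-mCherry/+ donors, whose Fcgr1-driven Cre labels nuclei red. They ate the diet for 6 weeks, starting 2 weeks after the transplant. Cells were first gated as F4/80+, Vcam+ and CD45+ and as negative for Ly6C, Ly6G, B220, SiglecF and the dead-cell dye DAPI. Nuclei were then gated as SYTO9+ and mCherry+ without CD11b, and loaded for droplet sequencing from the 3′ end. Each group has 1 library, and the matrix pools both as 2 wells that no label ties to a genotype. No comparison of genotypes was therefore made, and no test was run. All intervals are exact 95% intervals and cover counting error only.

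Ribosomal protein messages, mitochondrial RNA and the messages of secreted proteins lie mainly in the cytoplasm, while unspliced transcripts of long genes and the noncoding RNA Malat1 lie in the nucleus. When cells are broken to release nuclei, cytoplasmic RNA can enter droplets as free RNA or cling to nuclei. In the mammary gland, luminal epithelial cells make large amounts of caseins and whey proteins from short genes.

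The ribosome-rich low-count barcodes had a median of 638 UMIs (501 to 986) and of 522 detected genes (191 to 799). Their ribosomal share had a median of 5.39% and ran from 3.02% to 55.7%, against medians of 0.959% in the reference and 1.53% in the depth-matched barcodes. These values chose the barcodes and are given as a description. Just inside the threshold, 12 barcodes of 3 to 3.5% had a median of 3.24%, and just outside it 16 barcodes of 2.5 to 3% had a median of 2.84%. Above 1000 UMIs, 67 further barcodes reached 3%, with a median depth of 1923 UMIs. The rule also matched 10 kinase genes named Rps6k, which are not ribosomal proteins. Without them 216 barcodes remained. Well 1 held 203 of the ribosome-rich low-count barcodes, 14.7% of its 1383 barcodes (12.9 to 16.7). Well 2 held 15, or 3.30% of its 455 (1.86 to 5.38). All 11 barcodes under 500 UMIs were in well 2, and droplets outside the deposited matrix were not analysed here. The wells shared 9 barcode sequences, and 0 of those were ribosome-rich low-count barcodes.

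**Figure D1:**
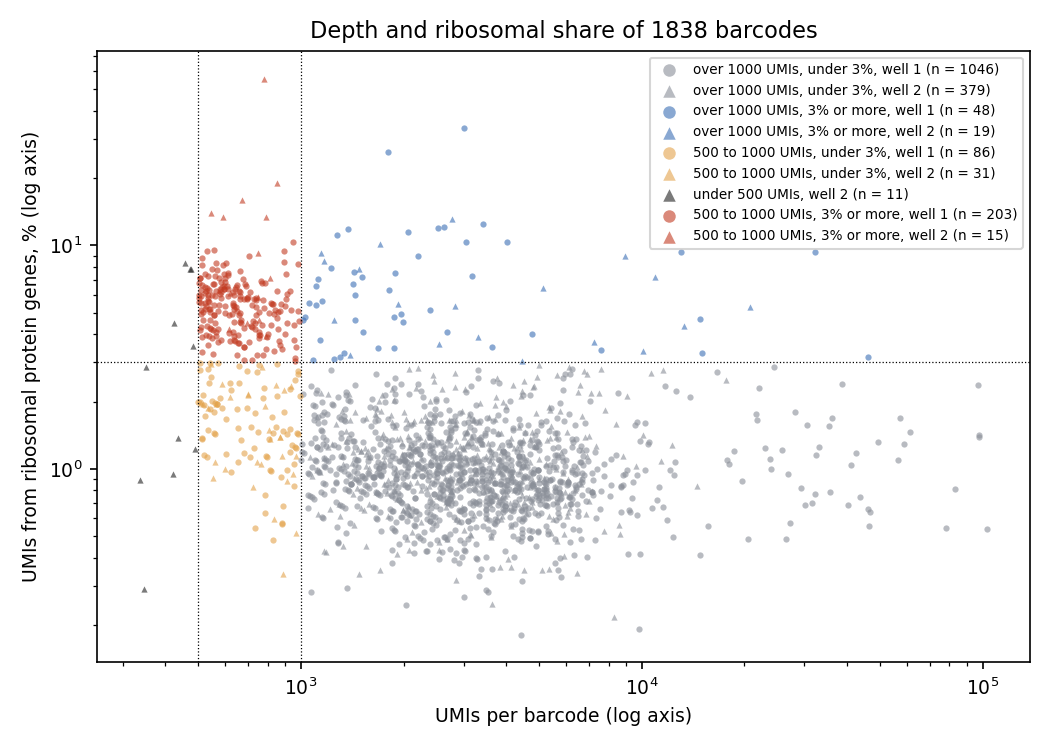
Each point is 1 barcode, with its UMIs on a log x axis and the percentage of UMIs from ribosomal protein genes on a log y axis, and circles and triangles for wells 1 and 2. Dotted lines mark 500 and 1000 UMIs and 3%; the 218 red points between them are the barcodes described, 203 of them in well 1.

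Milk protein messages were abundant in these barcodes, but S100a8, S100a9 and Col1a1, the defining neutrophil and stromal messages that the selection was also thought to hold, had 3 UMIs or fewer each. S100a8, a calcium-binding protein of neutrophils on chromosome 3 (90668978 to 90670035, mm10), had 3 UMIs in all 218 barcodes (20.6 CPM, UMIs of a gene per 1000000 UMIs of the group), against 6.00 CPM in the reference, a ratio of 3.44 (0.682 to 10.8). Its partner S100a9 had 0. In the reference, S100a8 had 41 UMIs and S100a9 had 5. Of those 41, 32 lay in barcodes with more UMIs of luminal epithelial genes, Trps1 left out, than of macrophage genes. Another 8 lay in barcodes the other way round. S100a8 is therefore not read as a measure of neutrophils here. Col1a1, the main chain of type I collagen on chromosome 11 (94936224 to 94953042), had 3 UMIs (20.6 CPM against 5.56, ratio 3.71, 0.733 to 11.7). Both intervals include 1, so no difference was detectable at this depth. The whole neutrophil list of 14 genes gave 206 CPM from 30 UMIs, next to 116 CPM in the reference and 363 CPM from 31 UMIs in the depth-matched barcodes, too few to order these groups. The whole fibroblast list of 12 genes gave 275 CPM from 40 UMIs, but 21 of these lay in 1 barcode. Without that barcode the list stood at 131 CPM, 1.81 times the reference (1.08 to 2.85). Other lists rested on few UMIs, with 4 endothelial, 1 T cell, 1 mast cell, 2 platelet, 10 dendritic cell and 17 basal epithelial UMIs. The 4 red cell UMIs were 27.5 CPM, with a ratio to the reference of 6.07 (1.56 to 17.2), next to 23.4 CPM from 2 UMIs in the depth-matched barcodes. The natural killer cell and adipocyte lists had 0, which at 3 counts of the total allows up to 20.6 CPM each. B cell genes gave 131 CPM from 19 UMIs (ratio 4.10, 2.42 to 6.56), with 11 UMIs of the antibody light chain Igkc in 8 barcodes. The depth-matched barcodes had 70.3 CPM of B cell genes from 6 UMIs.

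Messages of the protein-making and energy machinery that the rule did not use were high throughout. Over 2582 genes with a mean of at least 100 CPM between the ribosome-rich low-count barcodes and the reference, 14.3% were 2-fold or more higher and 14.2% were 2-fold or more lower. Without genes of the rule and mitochondrially encoded genes, the shares were 11.3% and 14.7% of 2493. A gene that is low in one of the groups passes this minimum only where it is high in the other, so counts and ranks of tested genes describe the selection and support nothing. All 5 tested ribosomal protein genes that the symbols of the rule miss were 2-fold or more higher, of 6 listed. The list stood at 6585 CPM against 1126 in the reference and 1676 at matched depth. Rplp1 and Rplp2, which form the stalk of the large subunit, had 1844 against 276 CPM (ratio 6.67, 5.85 to 7.59) and 998 against 135 CPM (7.40, 6.16 to 8.82). In wells 1 and 2 Rplp1 stood at 1766 and 2835 CPM, above the reference of either well (261 and 336). These genes are made in step with the genes of the rule, so their level is tied to the choice of barcodes.

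All 13 tested elongation and translation factors of 15 listed were 2-fold or more higher, beside 11.3% of all tested genes outside the rule. Eef1a1, which brings aminoacyl-tRNA to the ribosome, had 2291 CPM against 461 (ratio 4.97, 4.42 to 5.56). The nuclear-encoded respiratory chain gave 5140 CPM against 1089, a ratio of 4.72 (4.37 to 5.09) over all 31 genes. Only 12 of these reached the minimum level, several only through the ribosome-rich low-count barcodes. Among the 15 highest ratios of genes outside the rule, Hdc and Rgs5 each rest on 1 barcode, and most of the others passed the minimum by their level in the ribosome-rich low-count barcodes. Atp5e, a subunit of the ATP synthase, had a ratio of 8.99 (5.87 to 13.3), Atp5k, another, had 186 CPM against 22.4 (8.30), and Uqcr11, of complex III, 7.26. Tomm7, of the mitochondrial import pore, had 8.09. The same ranking held the cytokine Mif (6.07), the epithelial galectin Lgals7 (6.07), the secretoglobin Scgb2b27 (5.81), the chaperone subunit Pfdn5 (5.73) and the nucleotide kinase Nme1 (5.62). Among 21 abundant cytoplasmic genes, 17 of 19 tested were 2-fold or more higher, next to the same 11.3%. Actb, the cytoplasmic actin, had 4397 CPM against 1013, and Tmsb4x, which binds actin monomers, had 1658 against 357. Vim, the intermediate filament protein vimentin, had a ratio of 1.47. At matched depth the low-ribosomal barcodes lay between, at 7421 CPM for the abundant list against 17250 in the ribosome-rich low-count barcodes and 5032 in the reference.

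The milk and whey list of 16 genes stood at 9743 CPM from 1416 UMIs, against 2196 CPM in the reference (ratio 4.44, 4.20 to 4.68). That ratio was 9.60 against reference barcodes of 1000 to 5000 UMIs alone, and 3.25 against the depth-matched barcodes at 3001 CPM. Of 6 tested genes, 5 were 2-fold or more higher, beside 11.3% of all tested genes outside the rule. Csn3, kappa-casein, which keeps casein micelles in solution, had 519 UMIs in 180 of the barcodes, or 3571 CPM against 634 (ratio 5.63, 5.13 to 6.17). It lies on chromosome 5 (87925579 to 87932665, mm10). Wfdc18, a small secreted whey acidic protein family member on chromosome 11 (83709015 to 83711348), had 365 UMIs in 169 barcodes, or 2511 CPM against 503 (ratio 5.0, 4.47 to 5.57). Lcn2, a secreted iron-chelate binder, had 2594 CPM against 607. Ltf, lactoferrin, had a ratio of 5.24 and Lalba, the milk cofactor of lactose synthesis, 3.71.

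The exception was Xdh, an enzyme of milk fat globule release and purine breakdown encoded over 66302 bases, at 96.3 CPM against 214 (ratio 0.450, 0.245 to 0.757). The classical caseins were nearly absent, with 2 UMIs of Csn2 and 3 of Csn1s1, and Wap had 1. No single barcode carried the milk signal, since the highest held 28 of the 1416 UMIs. Milk UMIs were in 211 of the 218 barcodes, with a median of 6 per barcode.

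Milk levels exceeded those of both sides of the reference when it was split by marker counts. The reference was split into 1157 barcodes with more UMIs of the macrophage list and 246 with more of the luminal epithelial list without Trps1. This split made no use of the milk genes. It is a cut by marker counts, so its sides are not cell types. The milk list stood at 766 CPM on the macrophage side and 4142 CPM on the epithelial side, both below the 9743 CPM of the ribosome-rich low-count barcodes. Csn3 stood at 229 and 1186 CPM and Wfdc18 at 168 and 958 CPM. In the 67 deep ribosome-rich barcodes the milk list reached 14283 CPM. The balance between the milk genes was alike, with overlapping intervals, in 3 of the groups. Wfdc18 made up 41.3% of Wfdc18 and Csn3 UMIs in the ribosome-rich low-count barcodes (38.0 to 44.6), 42.3% on the macrophage side (39.9 to 44.8) and 44.7% on the epithelial side (43.4 to 45.9). In the deep ribosome-rich barcodes it was 60.0% (58.2 to 61.8).

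**Figure D2:**
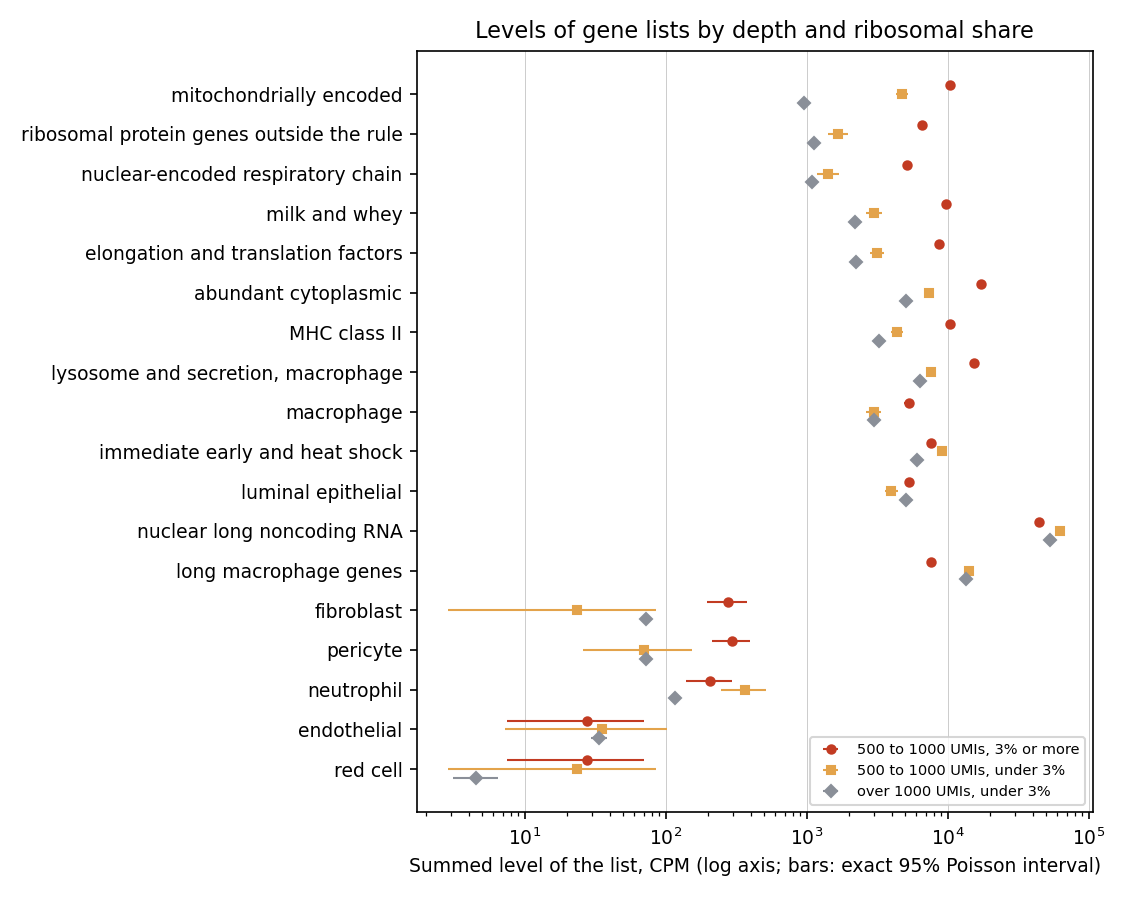
Points give the summed level of each gene list in CPM on a log axis, with exact 95% Poisson intervals, for the ribosome-rich low-count barcodes (red), the depth-matched low-ribosomal barcodes (orange) and the reference (grey). The milk list stands at 9743 CPM in red against 2196 in grey, and the list of long macrophage genes is the other way round, at 7555 against 13503.

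Macrophage messages were higher as a list, with ratios that ranged widely by gene. The macrophage list of 11 genes gave 5291 CPM against 2980 in the reference (ratio 1.78, 1.65 to 1.91). Of 9 tested genes, 4 were 2-fold or more higher and 1 was 2-fold or more lower, beside 11.3% and 14.7% of all tested genes outside the rule. C1qa, C1qb and C1qc, which make the first component of complement, had ratios of 3.39 (2.84 to 4.01), 2.96 and 2.91. C1qa stood at 998 CPM, also above the 504 CPM of the macrophage side of the reference. The surface receptors named here had no common direction. Csf1r, the receptor for the macrophage growth factor, had 385 CPM against 333, a ratio of 1.16 whose interval includes 1 (0.870 to 1.51). Adgre1, which encodes the F4/80 antigen used in the sort, had 0.714 (0.477 to 1.03). Mertk, a receptor for dying cells, had 193 CPM against 390 (0.493, 0.327 to 0.715). Cx3cr1, the fractalkine receptor, was high at 2.39 (1.85 to 3.03).

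Other genes that macrophages use also ranged widely. All tested genes outside the rule were 2-fold or more higher in 11.3% and lower in 14.7%. Of the list of antigen presentation by MHC class II, 4 of 4 tested genes were 2-fold or more higher. Cd74, the invariant chain, had 4362 CPM against 1177, and H2-Ab1 1844 against 544. Of 12 genes of lysosomes and secretion, 6 were 2-fold or more higher and 0 were 2-fold or more lower, beside those 11.3% and 14.7%. Apoe, the lipid carrier, had 3908 CPM against 1100 (3.55, 3.26 to 3.87), and Psap, the precursor of the saposins, 3323 against 1302. Lgmn, the lysosomal legumain, had 1101 against 965, a ratio of 1.14 (0.969 to 1.34). The 15 long macrophage genes gave 7555 CPM against 13503 in the reference and 14208 at matched depth. None of the 14 tested was 2-fold or more higher and 6 were 2-fold or more lower, next to the same 2 shares. Elmo1, a regulator of engulfment spread over 517758 bases, had 867 CPM against 1875 (0.462, 0.385 to 0.551). Frmd4b, over 330675 bases, had 255 against 685, and Zeb2, a transcription factor of macrophage identity, 791 against 1715. Ptprc, which encodes CD45, was level at 1.02 (0.829 to 1.25). Apoe made up 81.8% of Apoe and Elmo1 UMIs (78.8 to 84.6), against 41.0% on the macrophage side of the reference (40.3 to 41.8).

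Luminal epithelial genes, summed as a list with Trps1 included, were level with the whole reference but higher than in the depth-matched barcodes. The list of 15 genes as a whole gave 5340 CPM against 5044, a ratio of 1.06 (0.985 to 1.14). It was 0.919 in well 1, 2.65 in well 2 and 2.41 against reference barcodes of 1000 to 5000 UMIs. As a mean over barcodes the ratio to the reference was 1.93. Against the depth-matched barcodes, at 3974 CPM, the ratio was 1.34 (1.18 to 1.53). Of 10 tested genes, 5 were 2-fold or more higher and 0 were lower, beside 11.3% and 14.7% of all tested genes outside the rule. Krt18, a keratin of simple epithelia over 3848 bases, had 619 CPM against 143 (4.35, 3.46 to 5.40), though 18 of its 90 UMIs lay in 1 barcode. Cldn3 and Cldn7, of tight junctions, had 2.81 and 3.09, and Epcam, the epithelial adhesion molecule, 2.44. Cdh1, E-cadherin, over 66896 bases, had 0.935 (0.649 to 1.31). Trps1, a luminal transcription factor over 235712 bases, had 1885 CPM against 3308 (0.570, 0.504 to 0.642). It supplied 22607 of the 34471 UMIs of the list in the reference, and 274 of 776 in the ribosome-rich low-count barcodes. The level ratio of the summed list therefore rests largely on this gene. Krt18 made up 24.7% of Krt18 and Trps1 UMIs (20.4 to 29.5), against 4.61% on the epithelial side of the reference (4.32 to 4.93).

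The UMIs of the ribosome-rich low-count barcodes came from shorter genes than those of the reference. Genes of the rule and mitochondrially encoded genes were left out here. The UMI-weighted median span of a gene was 31323 bases in the ribosome-rich low-count barcodes, against 60345 in the reference and 52565 at matched depth. Both sides of the reference had long spans, 61123 bases for the macrophage side and 59215 for the epithelial side. Genes under 5 kb supplied 12.9% of UMIs, against 4.60% in the reference, and genes of 100 kb or more 21.7% against 34.6%. The values that follow cover tested genes only and describe the selection. A gene low in one group passed the minimum only where it was high in the other. Of 123 tested genes under 5 kb, 69.1% were 2-fold or more higher and 0 were 2-fold or more lower, with a median ratio of 2.94. Of 830 tested genes of 100 kb or more, 5 were 2-fold or more higher and 31.2% were 2-fold or more lower, with a median ratio of 0.583. The 282 higher genes had a median span of 7999.5 bases and a median of 5 exons, and 25 had a single exon. The 366 lower genes had medians of 162858 bases and 14 exons.

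Among tested genes, exceptions to the trend with length were few, and they were singled out after their values were seen. The 5 long genes that were higher were Cx3cr1, Scp2 (ratio 4.15), a sterol carrier, Hmgb1 (2.09), a chromatin protein, Sgk1 (2.07), a kinase, and Cmss1 (2.69). Cmss1 was higher still in the depth-matched barcodes, at 4080 CPM against 1569 in the ribosome-rich low-count barcodes. The 1 gene of 5 to 20 kb that was 2-fold or more lower was Ttc14 (0.410, 0.187 to 0.782). The 5 lowest ratios among tested genes, all of which reached the minimum level through the reference, belonged to Gda (0.168), a guanine deaminase, Gm37240 (0.172), Ago3 (0.183), of small RNA silencing, Arhgap26 (0.185) and F13a1 (0.192), a clotting factor subunit made by resident macrophages. Gm37240 was annotated over 1391093 bases. Each of these 5 rested on 5 to 7 UMIs in the ribosome-rich low-count barcodes. Gda and F13a1 stood at 1097 and 1190 CPM in the reference of well 2, but at 31.7 and 14.5 CPM in that of well 1. The ribosome-rich low-count barcodes of well 1, which are most of them, had 29.7 CPM of Gda and 22.3 CPM of F13a1. These 2 pooled ratios therefore mix the wells. Against the depth-matched barcodes the ratio was 1.03 for F13a1 (0.261 to 4.78) and 0.147 for Gda (0.0491 to 0.368).

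**Figure D3:**
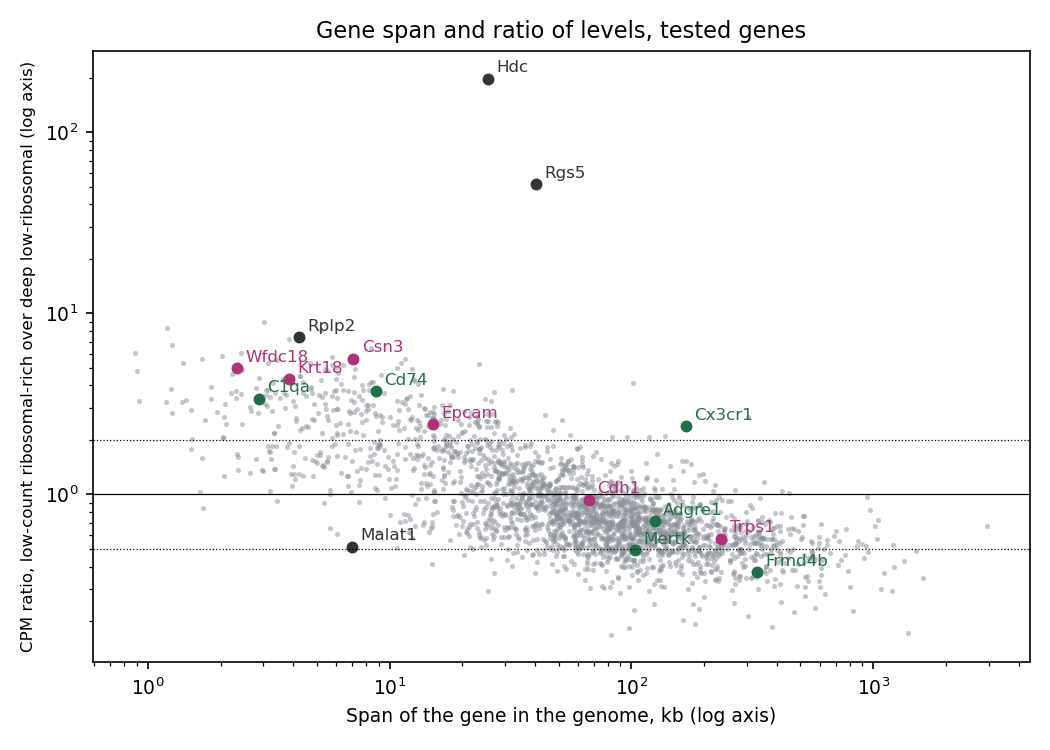
Each point is 1 tested gene outside the rule and not mitochondrially encoded, with its span in the genome in kb on a log x axis and the ratio of CPM, ribosome-rich low-count barcodes over reference, on a log y axis; epithelial and milk genes are named in magenta, macrophage genes in green and others in black. Dotted lines mark ratios of 2 and 0.5, and the cloud slopes from a median of 2.94 under 5 kb to 0.583 at 100 kb or more, with Hdc and Rgs5 far above it.

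The list of 11 nuclear noncoding RNAs stood at 44106 CPM against 52874 in the reference (ratio 0.834, 0.814 to 0.855, but 1.11 in well 2 alone) and 44794 on its macrophage side. Of 7 tested genes, 1 was 2-fold or more higher, Gm42418, and 1 was 2-fold or more lower, Kcnq1ot1. These counts are near the 11.3% and 14.7% of all tested genes outside the rule. Malat1 had 21908 CPM against 42554 in the reference and 33458 at matched depth (ratio to the reference 0.515, 0.497 to 0.533). It was found in 208 of the 218 barcodes, with a median of 13 UMIs per barcode. Neat1, which scaffolds nuclear paraspeckles, had a ratio of 0.620 (0.534 to 0.715), and Xist, which coats the inactive X chromosome, 0.701 (0.598 to 0.816). Gm42418, a predicted gene that overlaps a ribosomal RNA locus, went the other way, with 18695 CPM against 5547. It supplied 18695 of the 44106 CPM of the list here, so the ratio of the list depends strongly on this gene. In the depth-matched barcodes Gm42418 had 17456 CPM too. Immediate early and heat shock genes stood at 7638 CPM against 6091 in the reference and 9156 at matched depth, and 2 of 12 tested were 2-fold or more higher, Ier2 and Hspa8, beside 11.3% of all tested genes outside the rule.

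Of the mitochondrially encoded genes, 10 of 10 tested were 2-fold or more higher, beside 14.3% of all tested genes. Their sum was 10369 CPM against 960 in the reference, a ratio of 10.8 (10.2 to 11.4). This sum was unevenly held. The median barcode had 0.367% mitochondrial UMIs, 38 barcodes had 0, and 4 barcodes above 5% held 849 of the 1507 UMIs. Without those 4 the level was 4618 CPM. The depth-matched barcodes had 4736 CPM, but this sum keeps their 2 barcodes above 5%, so the 2 levels are not comparable. After a random draw of 500 UMIs per barcode, 77.5% (71.4 to 82.9) of the ribosome-rich low-count barcodes had a mitochondrial UMI. At matched depth the share was 41.0% (32.0 to 50.5). The medians per barcode were 0.104% at matched depth and 0.0411% in the reference.

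Within the 500 to 1000 UMI band, list levels differed along the ribosomal share. From under 1% (20 barcodes), through 1 to 3% (97) and 3 to 6% (142), to 6 to 10% (69), the milk list stood at 2354, 3157, 9710 and 10402 CPM. Over the same steps the macrophage list stood at 3259, 2924, 4995 and 6283 CPM. The long macrophage genes stood at 18829, 13095, 7911 and 7549 CPM, and the UMI-weighted median gene span was 59965, 51484, 33000 and 28466 bases. The largest step in the milk list was therefore across the 3% threshold, while between the 2 bands above it the intervals overlapped for milk and for the long macrophage genes. The 7 barcodes of 10% or more, 6 of them in well 2, had 4831 CPM of milk genes, 966 CPM of long macrophage genes and 60870 CPM of mitochondrial RNA. The well and the ribosomal share cannot be told apart in that band.

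**Figure D4:**
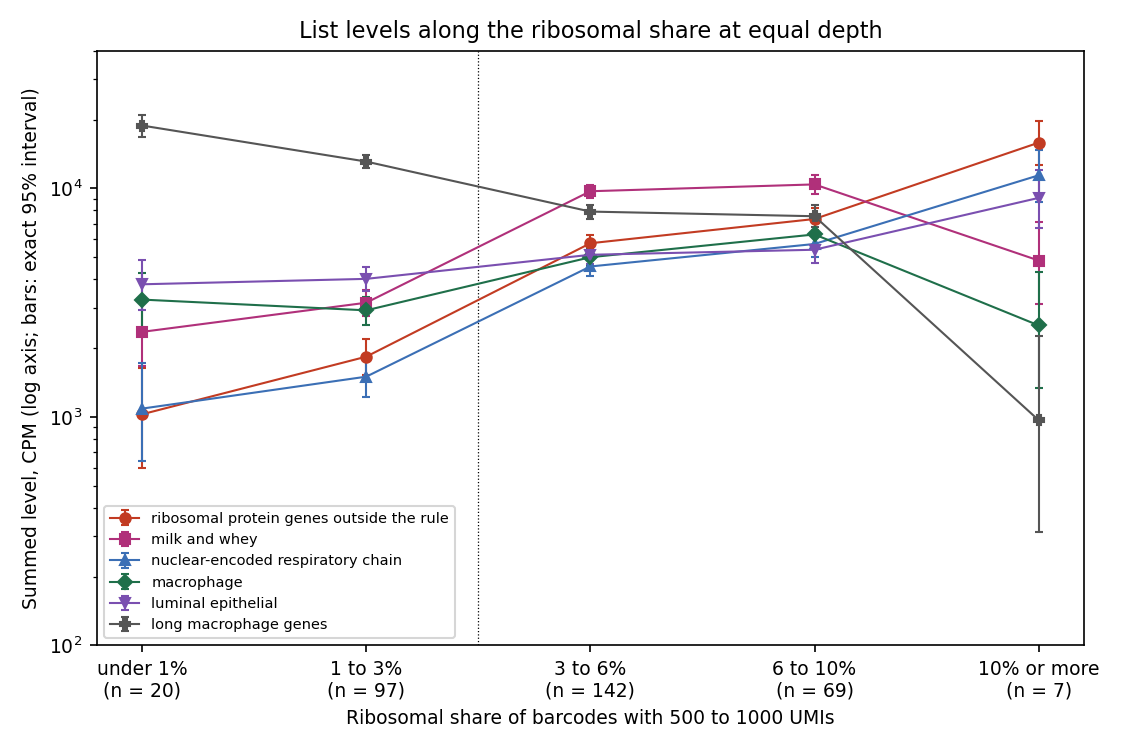
Lines join the summed level of 6 gene lists in CPM on a log axis, with exact 95% Poisson intervals, across bands of ribosomal share among barcodes of 500 to 1000 UMIs, and the dotted line marks 3%. Milk genes stand at 2354 CPM under 1% and 9710 at 3 to 6%, and long macrophage genes at 18829 and 7911; the last band holds 7 barcodes.

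Most of the ribosome-rich low-count barcodes held macrophage and epithelial messages at once. Every barcode was thinned to 500 UMIs, and 0 of the 218 had to be left out. Then 85.8% (80.4 to 90.1) had a UMI of the macrophage list together with a UMI of the luminal or milk lists. The share was 53.0% at matched depth, 47.3% in the reference and 50.7% in the deep ribosome-rich barcodes. Trps1 was kept in the luminal list for these shares. On the macrophage side of the reference it made up 0.566 of the mean of 0.666 luminal UMIs per thinned barcode. In the ribosome-rich low-count barcodes it made up 0.922 of 2.68. Only 2 of the 218 barcodes had macrophage UMIs alone, or 0.917%, against 25.9% of the reference, and 13.3% had epithelial UMIs alone. Without thinning, the shares with both were 89.0% and 92.1% in the ribosome-rich low-count barcodes and the reference, whose median depths were 638 and 3143 UMIs.

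Thinned shares of single lists showed the same mixture. Milk UMIs were in 94.5% (90.6 to 97.1), against 32.1% of the macrophage side of the reference and 63.8% of the epithelial side. Apoe was in 77.5%, against 50.1% of the macrophage side and 11.0% of the epithelial side. Csn3 alone was in 76.1% against 12.4% and 31.3%. Neutrophil UMIs were in 9.63% of the ribosome-rich low-count barcodes and 7.51% of the reference. Doublets were not called, and their part in the barcodes with both kinds of message was not tested.

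**Figure D5:**
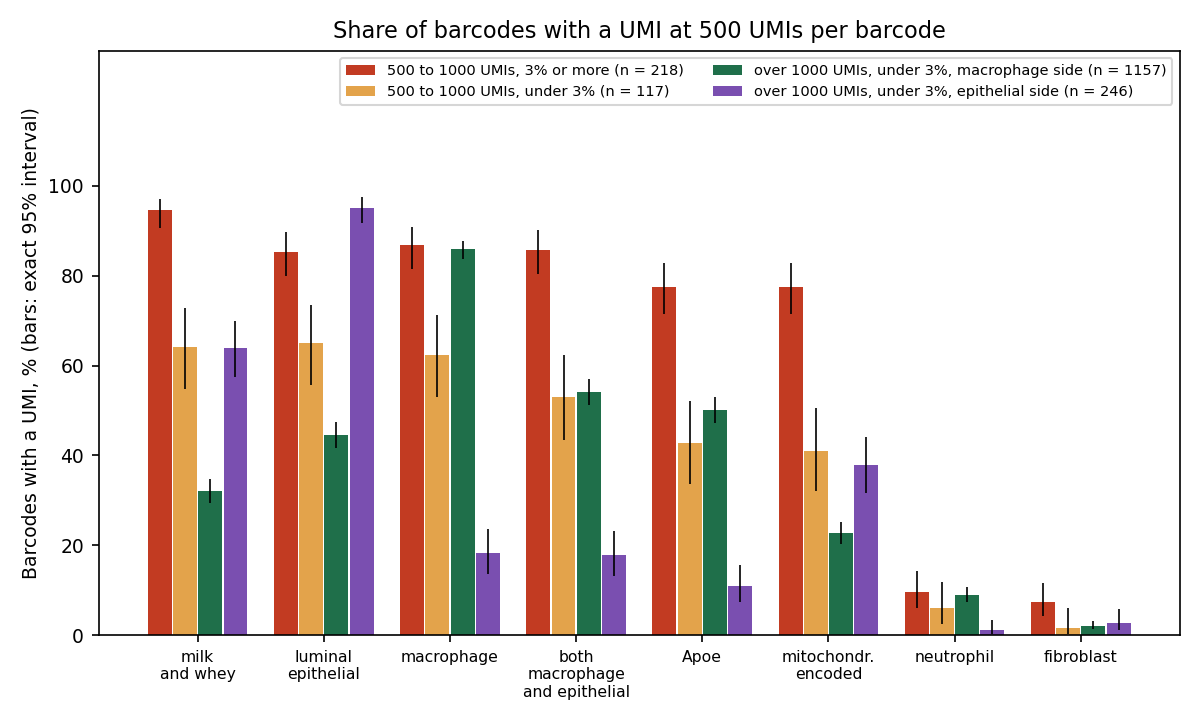
Bars give the percentage of barcodes with at least 1 UMI of each list or gene after thinning to 500 UMIs, with exact 95% intervals, for the ribosome-rich low-count barcodes (red), the depth-matched low-ribosomal barcodes (orange) and the macrophage (green) and epithelial (purple) sides of the reference. Macrophage and epithelial messages stand together in 85.8% of the red group, against 54.1% of the green and 17.9% of the purple. The green and purple groups were split on the macrophage and luminal lists, Trps1 left out, so their shares with both are tied to that split. The bars themselves count Trps1 in the luminal list. The whole reference stands at 47.3%.

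The 15 barcodes of well 2 held 10581 UMIs, so that 1 UMI is 94.5 CPM and a gene near the minimum level passes 2-fold by a count of 0 or a few. Against its own reference, well 2 had 34.5% of 2534 genes 2-fold or more higher and 30.3% 2-fold or more lower, and well 1 had 14.4% and 12.6% of 2563; nothing is read from that gap. List levels rest on more UMIs, though the milk list of well 2 had only 33. Milk genes stood at 3119 CPM in well 2 and 10263 in well 1, next to references of 563 and 2607 CPM. In both wells the milk level was above that of the well's own reference, with a ratio of 5.54 (3.79 to 7.85) in well 2. The macrophage list was 9829 CPM in well 2 and 4935 in well 1, and genes of lysosomes and secretion 32039 and 13915. Csn3 had 567 and 3807 CPM, and Lyz2, the macrophage lysozyme, 2741 and 312. Long macrophage genes were below the well's own reference in both, at 5103 against 19799 CPM in well 2 and 7748 against 11921 in well 1. Genes of the Y chromosome gave 609 CPM in the reference of well 2 and 0.183 in that of well 1. They had 0 UMIs in the well 2 barcodes, which allows up to 283.5 CPM. The well, the genotype, the animals and the preparation cannot be told apart.

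A few barcodes stood out one by one. Hdc, which makes histamine, had the highest ratio of any tested gene, 199, but 37 of its 38 UMIs were in 1 barcode of 859 UMIs in well 1. The depth-matched barcodes had 29 UMIs of Hdc. They stood at 340 CPM against 261 in the ribosome-rich low-count barcodes (ratio to the depth-matched barcodes 0.769, 0.462 to 1.29). Rgs5, a signalling regulator of pericytes, had 32 UMIs, all in 1 barcode of 677 UMIs. That barcode also held 14 of the 20 UMIs of Sparc, a matrix protein, and 13 of Mgp, and it gave the 21 fibroblast-list UMIs named above. Without it the pericyte list stood at 0.954 times the reference (0.455 to 1.77). The barcode with the highest mitochondrial share, 64.0%, had 191 genes. The one with the highest ribosomal share, 55.7%, had 302 genes and 0 UMIs of Malat1. In all, 10 barcodes lacked Malat1, 6 of them in well 2. Their UMI-weighted median gene span was 19.5 kb, and their long macrophage genes stood at 1714 CPM.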

How the data were processed

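The deposited file is 1 matrix of raw UMI counts over 32285 genes and 1838 barcodes in 2 wells. The authors made these counts with Cell Ranger 5.0 on mm10, per the submitters' processing notes; the matrix header gives 5.0.1. Total counts were 7381447. Barcodes were grouped by UMIs and ribosomal share; no further filter on barcodes was applied, and doublets were neither called nor removed. Counts were summed over barcodes, scaled to CPM over all UMIs and given with exact 95% Poisson, conditional binomial (ratios) or Clopper-Pearson (shares) intervals, which cover counting error only. Summing weights deep barcodes more. Genes were tested against a fold of 2 where the mean CPM of the 2 sets was at least 100; no p-value was computed. Counts made with near-identical gene copies, such as ribosomal pseudogenes, are uncertain. For shares of barcodes, each was thinned to 500 UMIs (seed 1). Gene spans came from GENCODE vM21 (GRCm38), which matched 32235 of 32285 identifiers. Named genes were the 15 highest and 10 lowest ratios outside the rule, the markers, and list members. The rule, the lists and the markers were chosen with earlier results of these data known. Values for single barcodes and subsets without them were added after seeing the data. The ratio and count step was tested on simulated data. Python 3.11.15, numpy 2.4.6, scipy 1.17.1 and pandas 2.3.3 were used. Alternatives covered the thresholds, the genes of the rule, the scaling, the reference, the mitochondrial filter and each well.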

Additional observations from a re-analysis of the deposited data

How the results depend on the processing

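Counting error, 145332 UMIs in all and 1 library per group limit these values. Ratios of lists under about 50 UMIs rest on few counts and are given only as descriptions. The milk list of well 2, with 33 UMIs, is among them. No paired analysis was possible because no test was run and no label ties a well to a sample. The 368 genes 2-fold or more higher and 367 lower became 875 and 768 in well 2 alone, where 15 barcodes remain, 715 and 645 with a minimum of 50 CPM, 201 and 158 with 200 CPM, and 140 and 14 at 4-fold. The mitochondrially encoded share of 1.04% became 1.11% with ribosomal and mitochondrial genes out of the total, 0.462% without barcodes above 5%, 0.878% in well 1 and 3.06% in well 2. The median span of 31.3 kb became 32.4 at a 2% threshold, 29.5 at 5%, 30.4 at 500 to 750 UMIs, 31.8 in well 1 and 22.1 in well 2. The milk ratio of 4.44 became 4.92 at 500 to 750 UMIs, 4.71 with those genes out of the total, 8.15 as a mean over barcodes, 9.60 against 1000 to 5000 UMIs, 3.94 in well 1, 5.54 in well 2 and 3.25 at matched depth. The share with both kinds of message, 85.8%, was 80.0% in well 2. Directions turned for the luminal list in well 1 (0.919), the fibroblast list in well 2 (0.842), the neutrophil list in well 2 (0.853) and at matched depth (0.568), and the nuclear noncoding list in well 2 (1.11). The causes were not tested. Leaving out the 2 barcodes highest in Hdc and in Rgs5 and the fibroblast list, an alternative added after seeing the data, took the fibroblast ratio from 3.78 to 1.82; it was 9.44 against 1000 to 5000 UMIs and 11.7 at matched depth.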
